A study of Mus musculus with 12 samples.

Results

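The genes described here are 34 genes of the hypoxia-inducible factor (HIF) pathway and of its targets outside glycolysis, given under 37 names and found on the array by the gene name of each probe. All 34 were on the array, and each was read from its brightest detected probe. Of these, 31 genes were detected on both arrays of at least 1 group and entered the tests, among 11453 genes in all. BNIP3, EPAS1 and ERO1L had no probe detected on any array and have no values below. The array file writes KDM3A as JMJD1A, KDM4B as JMJD2B and BHLHE40 as BHLHB2.

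The cells were C2C12, an established mouse myoblast line that fuses into myotubes when serum is lowered. The study treated them with the solvent DMSO or with 10 uM embelin, a benzoquinone from plants; the study's title presents it as a means of inhibiting PCAF, an acetyltransferase. Each treatment was measured in growth medium with 20% fetal bovine serum and after 24 h and 48 h in differentiation medium with 2% horse serum, on 2 Illumina arrays per group and 12 in all. For the growth-medium groups the labels give 0 h in one field and 24 h of treatment in another, so their exposure time is uncertain. There was no group without DMSO and no group at low oxygen. Whether the paired arrays stem from independent cultures is not stated, so the p-values below measure only the spread between these arrays, which may be technical. All of it comes from 1 cell line in culture.

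HIF is a pair of proteins, an oxygen-labile alpha subunit such as HIF1A and a stable partner, ARNT. When oxygen is plentiful, the prolyl hydroxylases EGLN1, EGLN2 and EGLN3 mark the alpha subunit for destruction by the VHL ubiquitin ligase, and the asparaginyl hydroxylase HIF1AN keeps it from binding its coactivators. When these enzymes stop working, which low oxygen, iron chelation or an excess of some metabolites can bring about, HIF binds a short element in DNA and turns on genes for glycolysis, blood vessel growth, pH control and mitochondrial removal. EGLN1 and EGLN3 are themselves targets of HIF, and in muscle cells oxygen supply is known to bear on differentiation. The arrays measure RNA, and neither HIF protein nor its binding to DNA was measured.

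Promoter sequence is shown for 2 pairs of related genes that were higher with embelin at 48 h, the carbonic anhydrases CAR9 and CAR12 and the prolyl hydroxylases EGLN1 and EGLN3, and for EGLN2, a prolyl hydroxylase gene that was not called. They were chosen after their values were seen. Each line is a window of 250 bases before to 50 bases after the gene's start from RefSeq (GRCm38.p6), written 5′ to 3′ along the gene's strand. Capitals mark the core of the HIF-binding element, ACGTG or GCGTG on either strand, with overlapping matches counted apart. The windows are chr4:43506776-43507075 on the plus strand (CAR9), chr9:66713436-66713735 on the plus strand (CAR12), chr8:124949205-124949504 on the minus strand (EGLN1), chr12:54203825-54204124 on the minus strand (EGLN3) and chr7:27166753-27167052 on the minus strand (EGLN2).
CAR9: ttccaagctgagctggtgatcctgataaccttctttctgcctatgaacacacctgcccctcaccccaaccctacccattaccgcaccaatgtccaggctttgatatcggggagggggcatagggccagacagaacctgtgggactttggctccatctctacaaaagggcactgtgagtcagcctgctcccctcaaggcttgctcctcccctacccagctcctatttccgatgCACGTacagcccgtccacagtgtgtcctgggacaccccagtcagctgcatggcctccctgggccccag
CAR12: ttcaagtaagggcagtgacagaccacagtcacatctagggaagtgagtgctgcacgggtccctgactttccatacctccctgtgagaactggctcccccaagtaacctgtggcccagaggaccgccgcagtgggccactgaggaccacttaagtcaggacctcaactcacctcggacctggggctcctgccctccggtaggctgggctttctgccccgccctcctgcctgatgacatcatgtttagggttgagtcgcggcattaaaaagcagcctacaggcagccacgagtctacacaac
EGLN1: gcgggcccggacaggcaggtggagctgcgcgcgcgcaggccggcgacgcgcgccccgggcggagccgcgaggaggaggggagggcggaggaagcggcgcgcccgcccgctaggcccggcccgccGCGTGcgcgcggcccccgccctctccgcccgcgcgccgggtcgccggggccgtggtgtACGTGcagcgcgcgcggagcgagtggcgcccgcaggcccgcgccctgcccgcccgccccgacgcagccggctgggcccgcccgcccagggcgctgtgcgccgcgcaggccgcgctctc
EGLN3: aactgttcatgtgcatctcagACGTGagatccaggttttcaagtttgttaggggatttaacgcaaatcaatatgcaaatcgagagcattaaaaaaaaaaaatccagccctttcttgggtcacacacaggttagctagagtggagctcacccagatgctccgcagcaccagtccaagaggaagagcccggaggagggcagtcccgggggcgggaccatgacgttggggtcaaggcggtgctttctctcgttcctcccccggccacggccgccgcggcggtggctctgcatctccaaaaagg
EGLN2: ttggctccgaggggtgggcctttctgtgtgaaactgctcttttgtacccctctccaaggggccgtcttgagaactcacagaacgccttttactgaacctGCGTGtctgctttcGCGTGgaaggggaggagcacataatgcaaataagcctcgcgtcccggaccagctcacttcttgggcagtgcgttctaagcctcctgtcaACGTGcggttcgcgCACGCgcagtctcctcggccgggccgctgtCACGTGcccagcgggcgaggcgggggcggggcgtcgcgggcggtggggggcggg

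CAR9 held 1 match, at position -18 from the start, and CAR12 held none. EGLN1 held 2 matches, at -126 and -68, and EGLN3 held 1, at -229. EGLN2, which was not called for embelin, held 6 in this window, 2 of them overlapping, and 1 in its other RefSeq window. Of the 34 genes, 26 had a window in the RefSeq table. Among the 19 with a window that were called higher with embelin at 48 h, 94.7% held a match, against 80% of the 5 tested genes that were not called and 69.4% of the 7758 tested genes with a window. Some genes have several windows, and counted by window the order of called and not called genes turned: 76% of 25 windows of called genes held a match, 83.3% of 6 windows of genes not called and 63% of the windows of all tested genes. The mean number of matches per window was 1.84 and 1.83 in called and not called genes. AK3L1, ANGPTL4, BHLHE40, BNIP3L, EPAS1, KDM4B, NDRG1 and PLOD2 had no window. A match is a description of the letters and was not tested as a binding site.

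At 48 h in differentiation medium, 26 of the 31 genes were higher in embelin-treated than in DMSO-treated cells, and none was lower. The log2 differences of these 26 ran from 0.33 for BHLHE40 to 3.97 for ANGPTL4, with adjusted p-values between 8.65e-06 and 0.0473. In 17 of them the difference was at least 1 on the log2 scale and in 6 it was at least 2. The 6 include ANGPTL4, CAR9 and CAR12, whose DMSO arrays at 48 h lay far apart. The share of all genes with differences of these sizes was not computed. The median over the 31 genes was 1.06, whereas the median over all genes was -0.001. Over all genes tested, 19.8% were called higher and 19.9% lower in this comparison. Both embelin arrays lay above both DMSO arrays in 28 of the 31 genes and below in none. Over all 11453 genes tested, they lay above in 4112 and below in 4153, so such a separation alone is common at 48 h. A gene is called throughout at an adjusted p under 0.05 from the limma fit across all genes, signals are normalized log2 signals, and differences are embelin minus DMSO unless stated. The 5 genes not called were NARF, STC2, HIF1AN, ARNT and EGLN2. Of the 26 calls, 23 held under every alternative in which the gene was tested, including with each array left out. The other calls, BHLHE40, KDM4B and PLOD1, are given below. Without 1 array of a compared group, the spread of the other groups stands in for its own. Calls kept in such fits, here and below, therefore do not test the result. Leaving out an array of a group not compared changes only the shared spread.

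**Figure D1:**
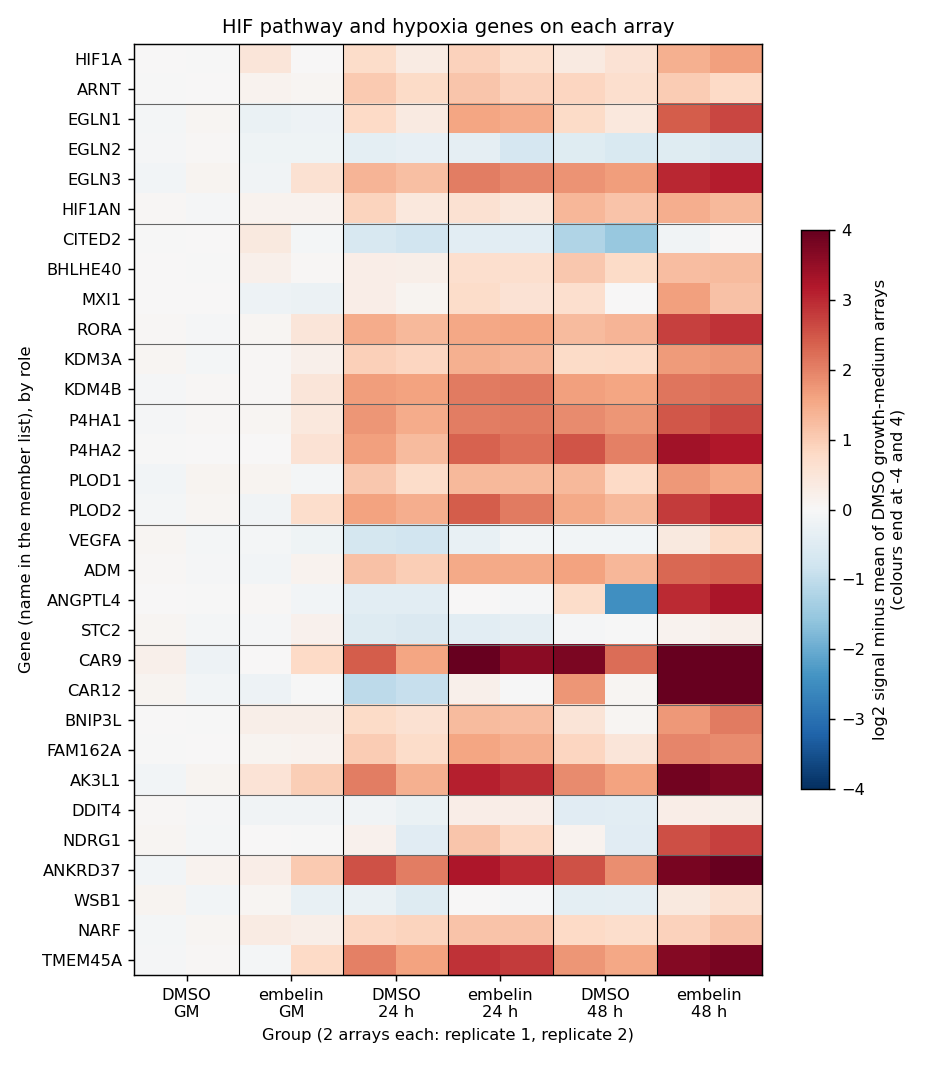
Log2 signal of the 31 genes (rows, by role) on each of the 12 arrays (columns, 2 per group), as the difference from the mean of the 2 DMSO growth-medium arrays; red is higher and blue lower, with colours ending at -4 and 4. The last 2 columns, embelin at 48 h, are the reddest in most rows, and EGLN2 is pale blue there.

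The embelin array at growth medium labelled replicate 2 stood apart from the others, at -48.7 on the first principal component against -70.7 to -70.2 for the other 3 growth-medium arrays. The root mean square SD within a group was 0.235 in the embelin growth-medium group and 0.135 to 0.176 in the others. Of 10 markers of myoblasts and myotubes, 9 were detected, MYF5 being the exception, and none of 6 adipocyte, 5 endothelial, 6 macrophage and 3 osteoblast markers was detected on both arrays of any group. TEK, CD68 and CSF1R were each detected on 1 array, all with DMSO. The summed signal of the 9 muscle markers was 21912 on that array, against 9687 to 9764 on the other growth-medium arrays. At 24 h it was 78857 to 85715 with DMSO and 72964 to 76659 with embelin, and at 48 h it was 125531 to 129048 with DMSO and 100427 to 105872 with embelin. Of the 9, CKM fell by 2.32, TNNT3 fell by 1.41 and MYOD1 fell by 0.59 on the log2 scale with embelin at 48 h, and none was called higher. Their part in the results below was not tested, and in these bulk samples fewer cells of a type and less RNA per cell cannot be told apart.

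Of the HIF subunits, HIF1A rose with embelin at 48 h and ARNT was not called. HIF1A read 8.54 and 8.75 on the DMSO arrays at 48 h and 9.59 and 9.81 on the embelin arrays. Both embelin arrays lay above both DMSO arrays. The difference was 1.06 ± 0.18 (SE, n = 2 and 2), a 2.08-fold rise with an adjusted p of 0.000934. In growth medium HIF1A read 8.19 and 8.15 with DMSO and 8.65 and 8.18 with embelin, and at 24 h 8.90 and 8.50 with DMSO and 9.08 and 8.87 with embelin. The treatments overlapped at 24 h. ARNT, the stable partner, read 9.78 and 9.61 with DMSO at 48 h and 9.93 and 9.72 with embelin. Its groups overlapped, with a difference of 0.13 (95% interval -0.15 to 0.41, adjusted p = 0.434). The 4 other detected ARNT probes were not called for embelin at any stage either.

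The oxygen-sensing enzymes divided into a pair that rose with embelin at 48 h and a pair that was not called. EGLN1, the main prolyl hydroxylase acting on HIF, read 6.87 and 6.52 with DMSO at 48 h and 8.52 and 8.77 with embelin. The embelin arrays were well above the DMSO arrays, by 1.96 ± 0.17 (SE), which is 3.88-fold, with an adjusted p of 1.27e-05. At 24 h EGLN1 read 6.90 and 6.44 with DMSO and 7.67 and 7.59 with embelin, and again the groups did not overlap, but the difference of 0.96 had an adjusted p of 0.103. In growth medium the order was the other way, with 6.03 and 6.16 with DMSO and 5.82 and 5.90 with embelin, and it was not called.

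EGLN3, a prolyl hydroxylase with a strongly hypoxia-inducible gene, read 11.02 and 10.89 with DMSO at 48 h and 12.21 and 12.35 with embelin. The 2 groups were apart by 1.33 ± 0.20 (SE, 2.51-fold, adjusted p = 0.000535). EGLN2, a prolyl hydroxylase whose gene is not known as a hypoxia target, read 6.83 and 6.71 with DMSO and 6.84 and 6.74 with embelin. These arrays overlapped, and the interval of the difference, -0.23 to 0.28, left out the size seen for EGLN1 and EGLN3. HIF1AN, the asparaginyl hydroxylase, read 8.98 and 8.79 with DMSO and 9.11 and 8.94 with embelin. It overlapped too, with an interval of -0.19 to 0.48. The difference between these pairs of enzymes was not itself tested.

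All 4 transcription regulators rose with embelin at 48 h. CITED2, which competes with HIF for its coactivators, read 10.46 and 10.13 with DMSO and 11.52 and 11.67 with embelin, a 2.45-fold rise (adjusted p = 0.000126). The DMSO arrays at 48 h were the lowest of all 12 for CITED2, which read 11.62 and 11.68 in growth medium with DMSO. RORA, a nuclear receptor, read 7.91 and 8.0 with DMSO and 9.37 and 9.52 with embelin at 48 h, whereas at 24 h both treatments lay between 7.93 and 8.21. Its rise at 48 h was 2.80-fold (adjusted p = 1.83e-05). MXI1, an antagonist of MYC, rose by 1.06 ± 0.20 (SE). BHLHE40, a repressor that also acts in the circadian clock, had the smallest rise, 0.33 ± 0.12, and lost its call in 14 of the alternatives, with 0.16 (adjusted p = 0.352) without the DMSO array replicate 2 at 48 h and 0.50 (adjusted p = 0.0102) without replicate 1.

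Both histone demethylases rose. KDM3A read 9.82 and 9.84 with DMSO at 48 h and 10.76 and 10.80 with embelin. The arrays of each group were close together and the groups were apart by 0.95 ± 0.10 (SE, 1.93-fold, adjusted p = 4.51e-05). KDM4B was 1.49-fold higher (adjusted p = 0.00738), a call lost without the embelin array replicate 2 at 48 h (adjusted p = 0.0532). The 4 tested enzymes of collagen modification also rose. PLOD2, a lysyl hydroxylase of collagen, read 10.77 and 10.54 with DMSO and 12.05 and 12.29 with embelin (2.84-fold, adjusted p = 0.000542). P4HA1 and P4HA2, catalytic subunits of collagen prolyl hydroxylase, were 1.68-fold and 2.03-fold higher. PLOD1, another lysyl hydroxylase, was 1.5-fold higher (adjusted p = 0.0218). Its call was lost with no detection filter (adjusted p = 0.057). The call was also lost without the embelin array replicate 1 and without the DMSO array replicate 2 (difference 0.34).

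Among the secreted factors, ANGPTL4, VEGFA and ADM rose and STC2 was not called. ANGPTL4, an inhibitor of lipoprotein lipase that is also known as a PPAR target, read 9.84 and 6.67 with DMSO at 48 h and 12.08 and 12.36 with embelin. The 2 DMSO arrays were 3.17 apart, the widest gap of any of the 31 genes in any group, and both lay below the embelin arrays. The difference was 3.97 ± 0.70 (SE, 15.6-fold, adjusted p = 0.0013). This SE and p-value use a spread shared by all 6 groups, whereas the DMSO arrays at 48 h had an SD of 2.24. The difference became 5.55 without the DMSO array replicate 1 and 2.38 without replicate 2, so its size rests on which DMSO array is used. With 1 DMSO array left the spread of the other groups stands in for its own, so the calls in these fits do not test the result. In growth medium and at 24 h all 8 ANGPTL4 arrays lay between 8.68 and 9.17.

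VEGFA, the vascular endothelial growth factor, read 11.40 and 11.39 with DMSO at 48 h and 11.89 and 12.28 with embelin (1.61-fold, adjusted p = 0.00232). ADM, the vasodilator peptide adrenomedullin, read 6.11 and 5.83 with DMSO and 6.78 and 6.85 with embelin (1.8-fold, adjusted p = 0.000453). For both genes the treatments did not overlap. STC2, stanniocalcin, read 7.69 and 7.70 with DMSO and 7.87 and 7.92 with embelin. The groups did not overlap, but the difference of 0.20 had an adjusted p of 0.166.

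The 2 membrane carbonic anhydrases, which help cells export acid, had some of the widest differences. CAR9 was not detected on any growth-medium array. It read 8.33 and 6.80 with DMSO at 48 h and 10.70 and 10.61 with embelin. The DMSO arrays were far apart and both were below the embelin arrays, a rise of 3.09 ± 0.45 (SE, 8.51-fold, adjusted p = 0.000365). CAR12 read 7.53 and 5.84 with DMSO and 10.03 and 10.03 with embelin, a rise of 3.34 ± 0.39 (SE, 10.2-fold, adjusted p = 8.47e-05). These SEs and p-values use a spread shared by all 6 groups. The DMSO arrays at 48 h had a wider one, with an SD of 1.08 for CAR9 and 1.19 for CAR12. As with ANGPTL4, leaving out the DMSO array replicate 1 at 48 h raised the difference, to 3.85 for CAR9 and 4.19 for CAR12, and leaving out replicate 2 lowered it, to 2.33 and 2.50.

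**Figure D2:**
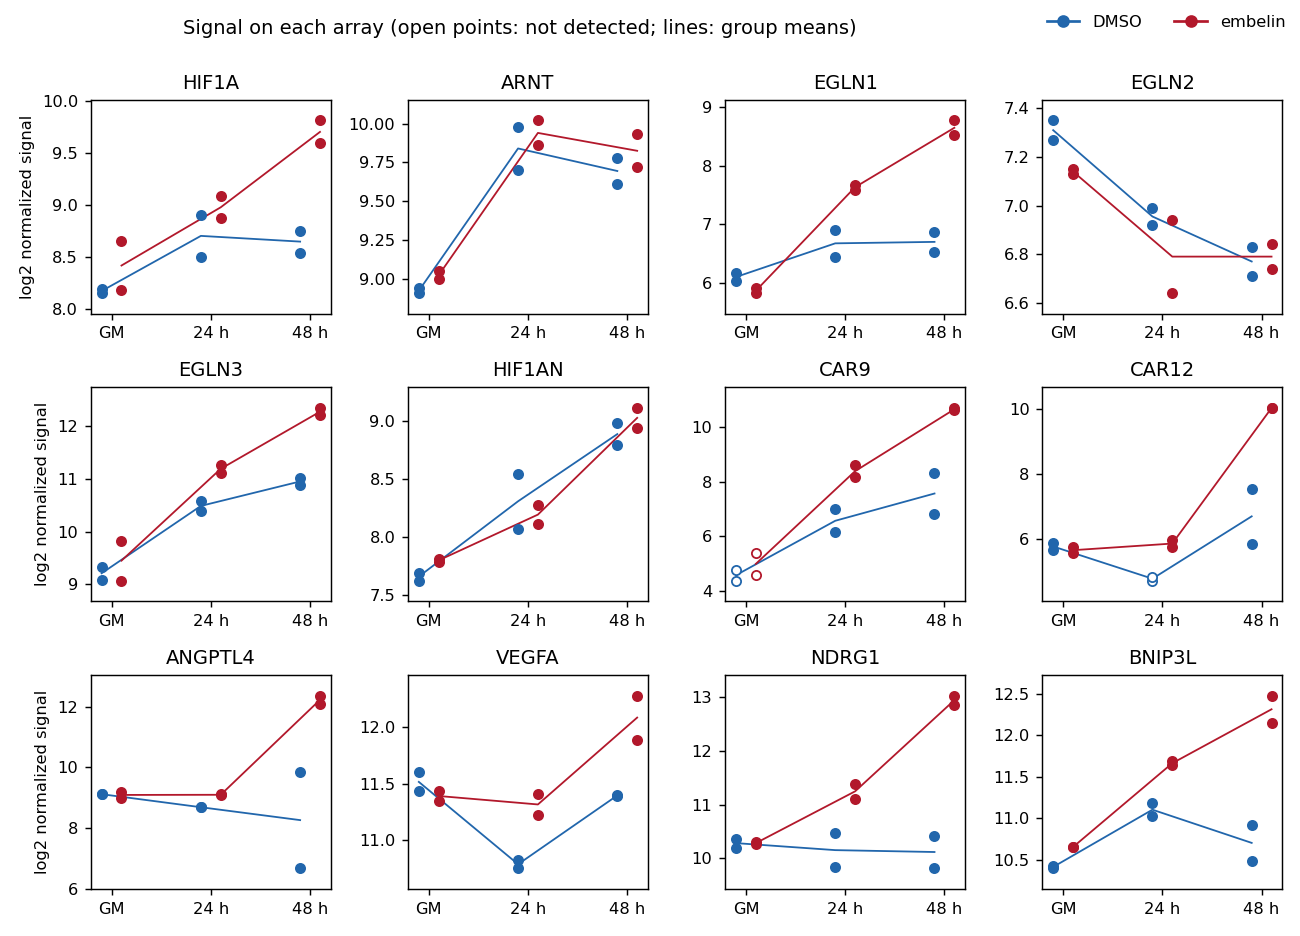
Normalized log2 signal of 12 genes on each array (points; open where not detected), in growth medium (GM) and after 24 h and 48 h in differentiation medium, with DMSO in blue and embelin in red and lines through the 2-array means; each panel has its own axis. EGLN1, EGLN3 and NDRG1 part between treatments at 24 h and further at 48 h, ARNT, EGLN2 and HIF1AN overlap at 48 h, and the 2 DMSO points at 48 h are far apart for ANGPTL4, CAR9 and CAR12.

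The 3 tested mitochondrial genes rose. BNIP3L, a receptor for the removal of mitochondria by autophagy, read 10.92 and 10.49 with DMSO at 48 h and 12.15 and 12.48 with embelin (3.05-fold, adjusted p = 2.21e-05). AK3L1, a mitochondrial adenylate kinase, read 6.57 and 6.30 with DMSO and 8.55 and 8.43 with embelin (4.16-fold, adjusted p = 3.64e-05). FAM162A, a mitochondrial protein, was 2.37-fold higher. In each of these the embelin arrays were above the DMSO arrays. The same held for both stress genes: NDRG1, a growth-arrest gene induced by hypoxia and by iron chelation, read 10.42 and 9.82 with DMSO and 12.85 and 13.02 with embelin, and had the smallest adjusted p of the 31 genes (7.03-fold, 8.65e-06). DDIT4, an inhibitor of the growth kinase complex mTOR, was 1.61-fold higher.

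Of the remaining 4 genes, TMEM45A, a membrane protein, was 4.27-fold higher with embelin at 48 h, ANKRD37, an ankyrin-repeat protein, 3.24-fold and WSB1, a ubiquitin ligase subunit, 1.82-fold. NARF, a prelamin-binding protein, differed by 0.29 and narrowly missed the threshold (adjusted p = 0.0538). Where a called gene had other detected probes, all 18 of those probes were called higher too. Probes that failed the detection rule were not compared. HIF1A was read from the only 1 of its 3 probes detected on any array, and ANGPTL4 from the only 1 of 2. EGLN3, KDM4B, P4HA2, PLOD2, RORA, TMEM45A and VEGFA each had 2 of 3 probes that passed the detection rule.

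At 24 h no member was called and in growth medium none was. The change of the embelin effect between these stages was called for no member either. The counts below are over genes read on the same arrays, which do not stand for separate replicates. At 24 h both embelin arrays were above both DMSO arrays in 27 of the 31 genes, and below in none. Over all genes these shares were 22.6% and 22.3%. By unadjusted p under 0.05, 23 of the 31 were higher and none lower, against 5.68% of all genes higher. The smallest adjusted p was 0.0695, for AK3L1, which read 6.74 and 6.10 with DMSO and 7.79 and 7.65 with embelin. Only 0.0175% of all genes were called higher at 24 h and 0.0349% lower. The median difference of the members was 0.47, and the estimate was above 0 in 29 of 31. Depending on the variance prior or background correction, up to 6 members passed at 24 h, AK3L1, EGLN1 and DDIT4 among them.

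In growth medium both embelin arrays were above both DMSO arrays in 10 of the 31 genes, against 15% of all genes, and below in 4, against 17.1%. At unadjusted p under 0.05, 3 members were higher, AK3L1, ANKRD37 and NARF, against 3.43% of all genes, and none was lower. The smallest adjusted p was 0.665 and the median difference was 0.13. Over all genes, 0% were called higher and 0% lower. Without the embelin array replicate 1, which leaves the array that stood apart, 2 members, KDM4B and TMEM45A, passed. Without replicate 2 none did.

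**Figure D3:**
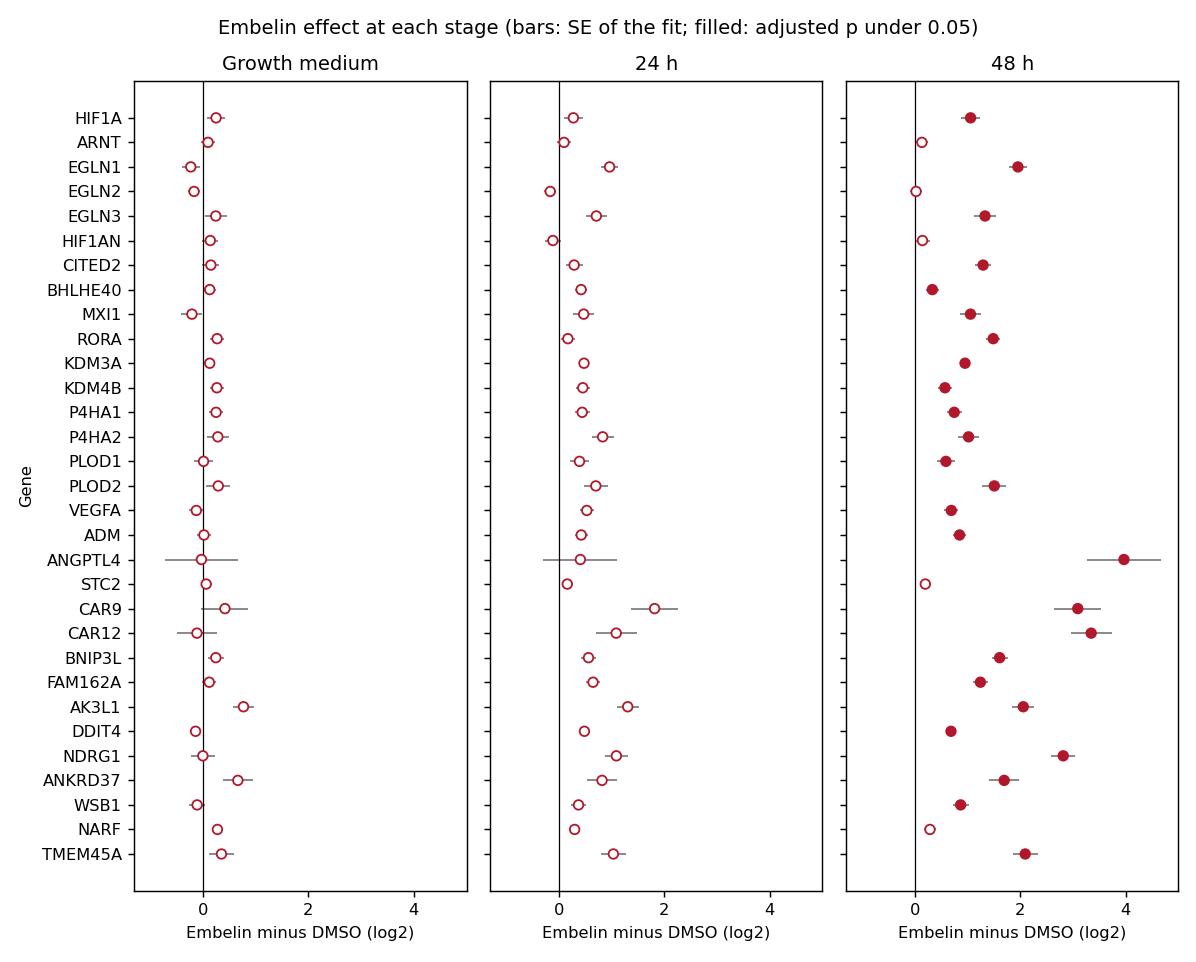
Embelin minus DMSO on the log2 scale (horizontal axis) for the 31 genes (rows) in growth medium, at 24 h and at 48 h; points are the fitted differences, bars their SE (2 arrays per group), and filled points passed an adjusted p under 0.05. All points are open in growth medium and at 24 h, and 26 are filled at 48 h.

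In 24 of the 26 genes called at 48 h, the embelin difference was smallest in growth medium, larger at 24 h and largest at 48 h. RORA and BHLHE40 were the exceptions by their brightest probes. For RORA the effect at 24 h minus that in growth medium ran from -0.30 to 0.29 over the alternatives, so its order is not settled. These 26 genes were picked by their call at 48 h, which partly sets the order in advance. The share of all genes with this order was not computed. The change of the embelin effect was tested as an interaction. Between growth medium and 48 h it was called higher for 20 of the 31 genes and lower for none, against 11.4% of all genes higher and 12.5% lower. Between 24 h and 48 h it was called higher for 8 and lower for none, against 6.62% and 7.71%. Between growth medium and 24 h no member was called, with a smallest adjusted p of 0.385. Over all genes 0% were called higher and 0% lower. Medium, time in it and length of embelin exposure may change together between stages, and their parts in these interactions cannot be told apart. The 8 genes whose embelin effect grew between 24 h and 48 h were ANGPTL4, BNIP3L, CAR12, CITED2, EGLN1, KDM3A, NDRG1 and RORA. The effect on RORA grew by 1.32 ± 0.19 (SE, adjusted p = 0.00158) and that on NDRG1 by 1.72 ± 0.32. The calls of ANGPTL4, KDM3A, EGLN1 and CITED2 were lost in 11, 13, 4 and 2 of 23 alternatives and that of CAR12 in 6 of 22. The effect on HIF1A grew by 0.81 between growth medium and 48 h (adjusted p = 0.0394), a call lost in 11 of 23 alternatives. The interactions of CAR9, ADM and, with DMSO, AK3L1 rest on growth-medium signals that were not above background, and that of CAR12 between 24 h and 48 h rests on such signals with DMSO at 24 h.

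Differentiation without embelin also moved most of these genes. In DMSO cells at 48 h against growth medium, 20 members rose and 3 fell, against 27.4% and 34.6% of all genes. At 24 h against growth medium 20 rose and 6 fell, against 26.1% and 31.5%. Their medians were 0.78 and 0.85, and those of all genes -0.08 and -0.06. Scaling each array by its median in place of quantile normalization moved the all-gene median at 48 h to -0.33 and gave 18 members higher of 24 called. Of the 26 calls at 24 h, 7 were lost in some alternative, EGLN1, HIF1A and WSB1 among them. Of the 23 calls at 48 h, 2 were lost. These comparisons share the growth-medium arrays. Of the other detected probes of called members, 13 of 19 were called the same way at 48 h and none the opposite way. At 24 h 13 of 21 were called the same way and 1 the opposite way.

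The rises in DMSO cells included collagen enzymes, oxygen sensors and demethylases. P4HA2 read 9.55 and 9.60 in growth medium and 12.09 and 11.60 at 48 h, and was 4.83-fold higher. KDM4B read 8.65 and 8.76 in growth medium and 10.34 and 10.27 at 48 h, a 3.04-fold rise with both arrays close together. EGLN3 rose 3.35-fold and EGLN1 1.52-fold, and HIF1AN 2.34-fold, although the latter was not called for embelin. The call of EGLN1 was lost in 3 of 23 alternatives, with 0.42 (adjusted p = 0.0854) without the DMSO array replicate 1 at 48 h, 0.54 (adjusted p = 0.0591) without the DMSO growth-medium array replicate 1 and 0.45 (adjusted p = 0.0629) with median scaling. CAR9 was at least 4.45-fold higher, since it was not detected in growth medium: the bound sets its mean against the lowest detected signal on each growth-medium array or its own signal, whichever is higher. AK3L1 was at least 2.04-fold higher and ADM at least 1.47-fold higher, for the same reason. HIF1A rose by 0.48 at 48 h (adjusted p = 0.0359), a call lost in 7 of 23 alternatives.

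CITED2, DDIT4 and EGLN2 fell in DMSO cells at 48 h. CITED2 fell by 1.35 and DDIT4, which read 11.24 and 11.16 in growth medium and 10.74 and 10.79 at 48 h, fell by 0.43. EGLN2 read 7.27 and 7.35 in growth medium and 6.83 and 6.71 at 48 h, and fell by 0.54. ANGPTL4 was not called, and its estimate of -0.86 turned to 0.73 without the DMSO array replicate 2 at 48 h. VEGFA read 11.60 and 11.43 in growth medium, 10.82 and 10.75 at 24 h and 11.40 and 11.39 at 48 h. It fell by 0.73 at 24 h and was not called at 48 h, where its second probe was called lower (-0.52). CAR12 was not detected at 24 h with DMSO and was at least 1.25-fold lower than in growth medium, a call lost in 17 of 22 alternatives. ARNT rose by 0.77 at 48 h by its brightest probe, while of its other probes 2 were called higher and none lower at 48 h, and 1 was called lower at 24 h (-0.46).

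Of the 20 genes that rose in DMSO cells by 48 h, 17 were higher still with embelin, by 0.33 to 3.09, against 16.9% of all genes that rose in DMSO cells. Of the 8 that were not called in DMSO cells, 7 were higher with embelin, against 18.7% of all such genes, and of the 3 that fell, 2 were, CITED2 and DDIT4, against 23.3%. Both comparisons use the same DMSO arrays at 48 h. Within embelin cells, 28 members rose and 1 fell from growth medium to 48 h, against 30.4% and 32.7% of all genes, with a median of 1.81. At 24 h 24 rose and 3 fell, against 27.3% and 29.9%, and 7 of these 27 calls were lost in some alternative. Of 20 other detected probes of called members, 18 were called the same way at 48 h and 1 the opposite way. At 24 h 15 of 20 such probes were called the same way and 1 the opposite way. CAR9 was at least 37.1-fold higher at 48 h, CAR12 20.9-fold, TMEM45A 10.5-fold and EGLN3 7.12-fold. EGLN2 was the member that fell at 48 h, by 0.35, a call lost without the embelin growth-medium array replicate 1 (adjusted p = 0.0653) or replicate 2 (0.0525) and without the embelin array replicate 2 at 48 h (0.11). CITED2 differed by -0.21 from growth medium by its brightest probe, not called, whereas its 2 other probes were called higher, by 0.56 and 0.55. Without the embelin growth-medium array replicate 2 its brightest probe was called lower (-0.45, adjusted p = 0.025). With median scaling the rises of DDIT4 (0.14, adjusted p = 0.364) and WSB1 (0.36, adjusted p = 0.127) in embelin cells were not called.

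The 2 arrays of a group differed among the members in one direction in some groups. With DMSO, replicate 1 was above replicate 2 in 27 of 31 genes at 24 h and in 25 of 31 at 48 h, with median differences of 0.18 and 0.23. Over all genes, replicate 1 was above in 49.6% and 50.7%. With embelin replicate 1 was above in 23 of 31 genes at 24 h and in 11 of 31 at 48 h, against 50.6% and 49.7% of all genes. In growth medium the counts were 15 with DMSO and 13 with embelin, against 50.2% and 51.5% of all genes. With embelin in growth medium, replicate 1 minus replicate 2 ran from -0.87, for TMEM45A, to 0.48. At 48 h with DMSO the widest differences were those of ANGPTL4, CAR12 and CAR9.

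**Figure D4:**
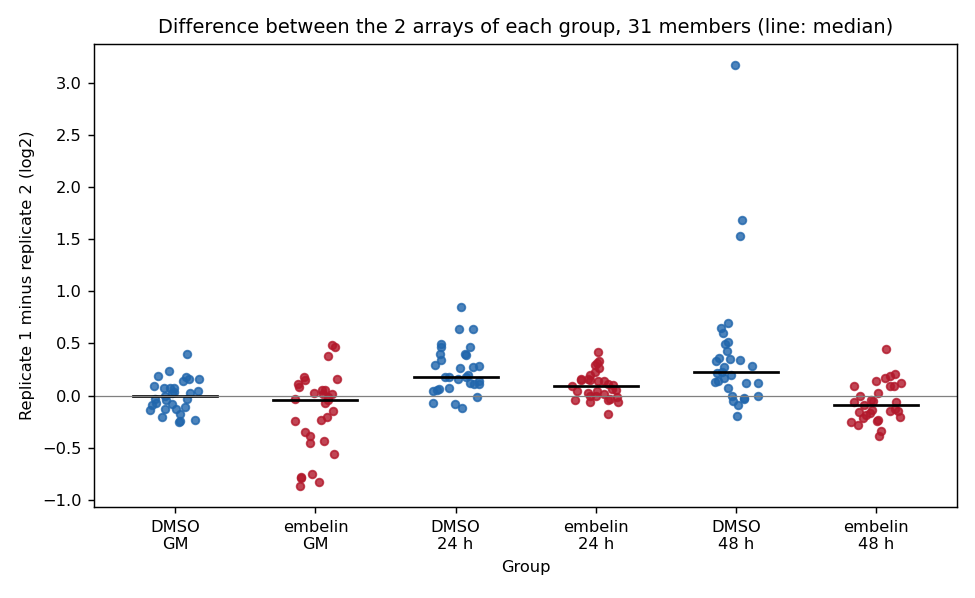
Replicate 1 minus replicate 2 on the log2 scale (vertical axis) for each of the 31 genes (points) in the 6 groups (horizontal axis), with the median as a line; blue is DMSO and red embelin. Most points lie above 0 in the DMSO groups at 24 h and 48 h, and the highest, 3.17, is ANGPTL4 at 48 h.

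Other genes of hypoxia and of neighbouring pathways were read from lists in the same comparison, embelin against DMSO at 48 h. Of 19 glycolytic hypoxia targets tested, 16 were higher and 2 lower, with a median of 0.84: the glucose transporter SLC2A3 rose by 2.44 and the enolase ENO2 by 1.96, and the muscle phosphofructokinase PFKM fell by 1.20. Of 34 other hypoxia-induced genes tested, 25 were higher and 5 lower, with a median of 0.98. In that list NOS2, the inducible nitric oxide synthase, rose by 3.14, GBE1, the glycogen branching enzyme, rose by 2.43 and IGFBP3 fell by 2.86. Of 15 genes of HIF degradation and coactivators, 3 were higher and 3 lower, with a median of 0.04, which is about the share of all genes called in each direction (19.8% and 19.9%). Among them the ubiquitin ligase subunit VHL rose by 0.65, the coactivator EP300 rose by 0.58 and the deubiquitinase USP20 fell by 0.56.

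Lists for 2 other regulators that share targets with HIF were read against the same all-gene shares of 19.8% higher and 19.9% lower. In both lists the count called higher lies near its share and the count called lower lies somewhat above, which was not tested. TRIB3 and VLDLR are named both in the ATF4 list and in that of other hypoxia-induced genes. Of 13 PPAR targets tested, 3 were higher and 4 lower, with a median of -0.08: PLIN2 rose by 0.85 and FABP3 fell by 1.54. Of 19 targets of the stress factor ATF4, 4 were higher and 6 lower, with a median of -0.25: DDIT3 rose by 1.02 and GPT2 fell by 1.19. ANGPTL4, a PPAR target, and DDIT4, an ATF4 target, are read as members above.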

How the data were processed

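Gene expression in C2C12 cells was measured on 12 Illumina bead arrays, 2 in each of 6 groups. The deposited intensity of each probe is the GenomeStudio mean bead signal without normalization, per the file headers. The submitters' processing notes give GenomeStudio 2010.2 and the header 1.8.0. An Agilent labelling kit is named in the labels, although the probes are those of Illumina. The deposited detection score was subtracted from 1 to give the detection p. Log2 values in the deposited series matrix equal the log2 signal less the array's 75th percentile and the probe's median over arrays: recomputed so, 100% lay within 0.006. Its columns have medians from -0.14 to 0.09, and it served only as an alternative. Columns of other samples numbered 0.

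The 75th percentile of signal ran from 123.1 to 154.9 per array, and the detected probes (p under 0.01) numbered 15031 to 16314 of 45281. The number of arrays limits the precision. Signals were normalized with neqc in limma 3.58.1 (R 4.3.3, offset 16). A probe entered if detected on both arrays of any group, which left 16981, and the brightest per gene was used. Symbols were updated through RefSeq: 27760 probes matched a current symbol, 7994 a synonym, and 9527 kept the file's name. Group means were fitted with limma on 12 arrays (6 residual and 4.51 prior degrees of freedom), with Benjamini-Hochberg adjustment over 11453 genes. A check of the tests on simulated data is not reported here and lends the results no support. Summaries and figures used Python 3.11.15, pandas 2.3.3, numpy 2.4.6 and matplotlib 3.10.9. Members and lists were chosen with earlier results of these data known. Named genes are all members, and for the other lists at most 4 called genes with the largest differences. Alternatives covered scaling, background, offset, detection filter, probe choice, variance prior, the series matrix, the groups fitted, a replicate block and leaving out each array.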

Additional observations from a re-analysis of the deposited data

Results flagged for a closer look

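The embelin effect differed between stages by a tested interaction for 20 genes between growth medium and 48 h, all in the direction of a larger effect at 48 h (log2 difference of differences, limma adjusted p under 0.05). It grew for ANGPTL4 by 3.995, CAR12 by 3.46, NDRG1 by 2.82, EGLN1 by 2.19, TMEM45A by 1.74 and BNIP3L by 1.36. It also grew for MXI1 by 1.26, PLOD2 by 1.22, RORA by 1.22, CITED2 by 1.14, FAM162A by 1.12 and EGLN3 by 1.09. For WSB1 it grew by 0.98, for DDIT4 by 0.82, for KDM3A by 0.82, for VEGFA by 0.82 and for HIF1A by 0.81. The fitted values of CAR9 (2.67), AK3L1 (1.29) and ADM (0.83) rest on growth-medium signals not above background and give no size: CAR9 and ADM were detected on no growth-medium array, and AK3L1 on none with DMSO. Of the 20 calls, 15 held in every alternative. Those lost in some were HIF1A in 11 of 23, EGLN3 and PLOD2 in 4 each, ANGPTL4 in 3 (adjusted p up to 0.0678) and CAR9 in 1 of 22 (0.0505). Without the DMSO array replicate 1 or 2 at 48 h, ANGPTL4 became 5.58 or 2.41, CAR12 4.30 or 2.62 and CAR9 3.44 or 1.91, so the order of these genes is not settled. Without the embelin growth-medium array replicate 1, EGLN3 became 0.71 and PLOD2 0.80. Medium, time in it and length of embelin exposure cannot be told apart in these differences between stages.

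Between 24 h and 48 h the effect grew for 8 of the same genes. It grew for ANGPTL4 by 3.56, NDRG1 by 1.72, RORA by 1.32, BNIP3L by 1.05, CITED2 by 1.01, EGLN1 by 0.995 and KDM3A by 0.48. The fitted value of CAR12, 2.26, gives no size, since CAR12 was detected on no DMSO array at 24 h. Of the 8 calls, 3 held in every alternative, those of BNIP3L, NDRG1 and RORA. ANGPTL4, KDM3A, EGLN1 and CITED2 lost theirs in 11, 13, 4 and 2 of 23, and CAR12 in 6 of 22. ANGPTL4 became 5.14 without the DMSO array replicate 1 at 48 h and 1.98 without replicate 2, and CAR12 3.10 and 1.42.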

How the results depend on the processing

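The count of members called for embelin at 48 h, 26, lay between 23 and 27 under every alternative and every array left out. The replicate block left it at 26 and changed no count of members by over 1.5 times; same-numbered arrays share only a number, and their deviations correlated at 0.09, 0.24 and 0.13 at the 3 stages. At 24 h, where no member was called, 6 were called with no background correction, 4 with an offset of 50, 5 with a trended and robust prior and 1 with the series matrix, and 0 to 1 with an array left out. In growth medium leaving out an array gave 0 to 2. The interaction between 24 h and 48 h, called for 8 members, gave 13 with no background correction and 3 to 12 with an array left out. Of the 310 member estimates, 46 crossed 0 in some alternative, and none of these was called at first. Only 2 were called after the sign changed: ANGPTL4 in DMSO cells at 48 h against growth medium, from -0.86 to between -2.44 and 0.73 without 1 array, and CITED2 in embelin cells at 48 h against growth medium, from -0.21 to 0.30 with the mean over probes. The cause was not tested. Over all genes, the 6 called at 24 h became 34 with no background correction, 28 with an offset of 50, 39 with a trended and robust prior, 12 with the series matrix, 3 with no detection filter or with the mean over probes, and 0 under either scaling, the replicate block and the fit of only the groups compared. In growth medium 338 genes were called without embelin replicate 1 and 2 without replicate 2, against 0. At 48 h 2940 were called without embelin replicate 2, against 4545. The 24 h and growth-medium interaction gave 4 with a trended prior and 256 without the embelin growth-medium array replicate 1, against 0. The 48 h and growth-medium interaction gave 1752 without embelin replicate 2 at 48 h, against 2737, and the 48 h and 24 h interaction gave 1089 with median scaling and 881 to 1032 without 1 of 3 arrays, against 1641. Median scaling called 1951 genes higher and 5099 lower in DMSO cells at 24 h, against 2989 and 3611, and 2103 and 5425 at 48 h, against 3140 and 3963. In embelin cells it gave 2120 and 4566 at 24 h, against 3128 and 3425, and 2551 and 4506 at 48 h, against 3480 and 3747. Members not above background, such as CAR9 and ADM in growth medium, have only bounds there.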
